A study of Mus musculus with 4 samples.

Results

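Complement genes were followed through the leukocytes of YUMMER1.7 tumors. The set comprised C1qa, C1qb, C1qc, C3, C3ar1, C5ar1, Cfp and Cfb, 8 of the 32285 genes in the count matrices, and was chosen by name. YUMMER1.7 is a mouse melanoma cell line, and all tumors grew under the skin of wild-type male C57BL/6J mice aged 7 to 8 weeks. The labels list 4 treatments, isotype control antibody, anti–PD-1, anti-MIF or both (anti–PD-1/anti-MIF), each given by intraperitoneal injection. A 5th hashtag, whose name joins anti-PD1, MIF and DDT, has no treatment in the labels, and its values are given only at the end. The long treatment cohort was given 4 doses over 2 weeks and its tumors were isolated at day 21, and the short treatment cohort was given 2 doses over 1 week and its tumors were isolated at day 14. Cells were sorted on CD45, remixed with an excess of CD45+ cells, marked with 1 hashtag antibody per arm and pooled, so each cohort is 1 library. Each arm of a cohort is therefore 1 hashtagged sample without a replicate, and the hashtags do not separate the mice within an arm. Time, number of doses and library cannot be told apart between the cohorts.

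Complement is a cascade of blood and tissue proteins that marks targets for uptake. C1q, built from the A, B and C chains, recognizes antibody on a surface and dying cells and opens the classical pathway, and tissue macrophages are a known source of it. C3 is the component on which all pathways converge. Factor B (Cfb) and properdin (Cfp) build and stabilize the C3 convertase of the alternative pathway, and C3ar1 and C5ar1 encode the receptors for the small fragments C3a and C5a.

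The gene library of the long cohort comprised 2516 barcodes and 23702910 UMIs, that of the short cohort 4987 barcodes and 31799441 UMIs. Hashtag doublets and negatives were removed, and the study's limits on genes and mitochondrial UMIs were applied. The 5th hashtag then held 322 cells of the long and 993 of the short cohort, which were left out. There remained 1671 cells of the long cohort (204 isotype, 319 anti–PD-1, 879 anti-MIF and 269 anti–PD-1/anti-MIF) and 3119 of the short (745, 1370, 556 and 448). The 2 libraries shared 12 cell barcodes among the kept cells. Cells were gated by genes outside the set. The T gate required Cd3e and held 568 cells, the NK gate Ncr1 and 140 cells, the plasmacytoid dendritic cell (pDC) gate Siglech and 92 cells, and the mature dendritic cell (mature DC) gate Ccr7 with Fscn1 and 149 cells. The myeloid gate required at least 10 Lyz2 UMIs per 10000 and none of the other gates, and held 2511 of 4790 cells (52.4%). A further 1303 cells (27.2%) fell in no gate. Independent markers of T and myeloid cells followed their gates. The summed level of 7 T cell markers was 4082 CPM (UMIs scaled to 1000000 UMIs of the gate) in the T gate and 3.21 in the myeloid gate, and that of 7 myeloid markers was 3238 CPM in the myeloid gate and 42.5 in the T gate. The 6 NK markers summed to 8463 CPM in the NK gate and 587 in the T gate, and the 6 pDC markers to 12560 CPM in the pDC gate and 562 in the myeloid gate. The 7 mature DC markers summed to 10370 CPM in the mature DC gate, but also to 6049 in the NK and 2963 in the T gate. Nearly all of the latter was Ccl5 (6042 and 2916 CPM), so this sum does not by itself set mature DCs apart. The myeloid gate was not free of other lists. Its pDC markers summed to 460 to 743 CPM over the arms, most of it Bst2 (mean 486 of 562 CPM). Bst2 was not confined to pDCs, with means of 291 CPM in the T, 267 in the NK and 247 in the mature DC gate. The neutrophil markers of the myeloid gate reached 8059 CPM in the long anti–PD-1/anti-MIF arm. Of 6 melanoma markers, Mlana, Tyr, Dct and Sox10 were at 0 in all 5 gates. The list summed to 48.7 to 96.4 CPM over the myeloid arms, nearly all of it Mitf (mean 68.8 CPM), a pigment cell factor that macrophages also use, and Pmel did not exceed 0.189 CPM there.

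The 3 C1q chains were high in the myeloid gate in every arm and near 0 in the other gates. C1qa ranged from 206 to 2546 CPM over the 8 myeloid arms, with a median of 499, and did not exceed 39.4 CPM in the T gate, 16.6 in the NK gate, 6.63 in the pDC gate or 48.6 in the mature DC gate. C1qb ranged from 490.4 to 3263 CPM with a median of 772 in the myeloid gate, and C1qc from 231 to 2207 with a median of 409. Their highest levels elsewhere were 68.3 CPM for C1qb and 63.1 CPM for C1qc. No arm of another gate overlapped the myeloid arms for any chain. Summed C1q was 90.4-fold higher in the myeloid gate than in the T gate in the long cohort (95% interval 75.3 to 109) and 176-fold higher in the short (92.9 to 386). Against mature DCs it was 54.2-fold higher in the long cohort (45.1 to 65.8), and the short cohort had only 1 C1q UMI in mature DCs, a ratio of 391 (70.2 to 15451). These intervals, like those of single arms below, cover counting error only. The order of the remaining gates could not be read, since their arms overlapped and each held sums without a C1q UMI, 3 of 8 in the T gate, 4 of 7 in the NK gate, 4 of 7 in the pDC gate and 4 of 8 in mature DCs. The highest T and mature DC levels of C1qb and C1qc all lay in the anti-MIF arm of the long cohort, the arm with the most C1q in its myeloid cells. T gate cells held summed C1q at 1.11% of the myeloid level in the long cohort and 0.567% in the short. The corresponding values of 3 other macrophage genes were 0.841% and 1.25% for Csf1r, 1.48% and 0.117% for Apoe and 3.81% and 2.93% for Cd68. The part of free RNA in these levels was not tested. Of all C1q UMIs, 75.5% came from the myeloid gate and 23.3% from cells in no gate, whose 7 myeloid markers summed to 1864 CPM. In bulk sums like these, fewer C1q cells and less C1q RNA per cell cannot be told apart.

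The 3 chains are neighbors on mouse chromosome 4. On GRCm38 they lie on the minus strand in the order C1qb (ENSMUSG00000036905, chr4:136880129-136886187), C1qc (ENSMUSG00000036896, chr4:136889804-136893065) and C1qa (ENSMUSG00000036887, chr4:136895917-136898803). The 3 genes span 18675 bases, with gaps of 3616 and 2851 bases between them. C3 lies apart, on the minus strand at chr17:57203970-57228136 (ENSMUSG00000024164). Bases upstream of C1qb and C1qc are shown because these chains moved together from cell to cell. Those of C3 are shown because its mean correlations with the chains were small and negative. RefSeq promoters on GRCm38.p6 were given for 6 of the 8 genes. Capitals mark GAGGAA, or TTCCTC on the opposite strand, the core letters bound by the myeloid factor PU.1. The C1qb stretch is chr4:136886201-136886450, the C1qc stretch chr4:136893066-136893164, which ends where the annotated gene begins, and the C3 stretch chr17:57228137-57228386, each read on the minus strand.
C1qb: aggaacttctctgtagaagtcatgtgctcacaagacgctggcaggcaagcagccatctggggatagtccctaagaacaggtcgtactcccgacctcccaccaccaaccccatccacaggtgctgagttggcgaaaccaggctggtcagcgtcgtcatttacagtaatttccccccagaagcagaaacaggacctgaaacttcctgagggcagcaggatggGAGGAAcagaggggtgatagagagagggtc
C1qc: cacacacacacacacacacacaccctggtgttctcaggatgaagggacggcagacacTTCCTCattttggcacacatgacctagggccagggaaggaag
C3: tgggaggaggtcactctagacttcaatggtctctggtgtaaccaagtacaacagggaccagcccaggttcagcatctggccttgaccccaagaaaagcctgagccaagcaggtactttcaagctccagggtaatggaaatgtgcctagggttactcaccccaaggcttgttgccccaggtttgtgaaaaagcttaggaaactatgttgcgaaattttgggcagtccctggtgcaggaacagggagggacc
In the 250 bases before the start, C1qb held 1 GAGGAA match that begins 30 bases before the start, and C1qc held 1 on the opposite strand. The RefSeq start of C1qc, at base 136892914 of chromosome 4, lies inside the GENCODE gene, so the 151 searched bases next to it are not printed. The C1qc match begins 193 bases before the RefSeq start and 42 bases before the end of the printed stretch. C3, C3ar1, C5ar1 and Cfp held none. These letters occur in 23.3% of 32851 RefSeq promoters. TTCNNNGAA, the letters of STAT factors, was in none of the 6 promoters and in 7.02% of all. GAAANNGAA, the letters of interferon regulatory factors, was searched on both strands. It had 1 match, in C5ar1 on the opposite strand, and was in 7.13% of all promoters. No match overlapped another.

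C3 was also a gene of the myeloid gate. It ranged from 78.2 to 230 CPM over the 8 myeloid arms with a median of 134. Its highest level elsewhere was 74.7 CPM, 3 UMIs in the 8 NK gate cells of the short anti–PD-1/anti-MIF arm. In the pDC gate no C3 UMI was found, so the myeloid level was at least 10.8-fold higher in the long and 17.5-fold in the short cohort, with 3 counts over the cohort's gate as the floor.

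Of the alternative pathway genes, Cfp was also present in pDCs and Cfb at a low level in mature DCs. Cfp, the gene of properdin, ranged from 128 to 392 CPM over the 8 myeloid arms with a median of 218. In pDCs it was 91.2 CPM in the isotype, 379 in the anti–PD-1 and 99.4 in the anti-MIF arm of the long cohort, and 159, 137, 87.7 and 188 CPM in the short cohort from isotype over anti–PD-1 and anti-MIF to the combination. The pDC and myeloid arms overlapped, and Cfp was lower in pDCs in 5 of 7 arms. The 4 pDC gate cells of the long anti–PD-1/anti-MIF arm were too few for the test and held 46 Cfp UMIs, or 998 CPM. With them, the myeloid level was 1.30 times that of pDCs in the long cohort (95% interval 1.06 to 1.61) and 1.20 times in the short (0.899 to 1.65). Cfp did not exceed 7.89 CPM in T cells, 49.8 in NK cells or 30.4 in mature DCs. Cfb, the gene of factor B, ranged from 76.4 to 196 CPM over the myeloid arms with a median of 165. In mature DCs it ranged from 0 to 81.1 CPM with a median of 13.5, and was lower than in the myeloid gate of the same arm in 8 of 8 arms. The myeloid level was 11.2-fold higher from 16 Cfb UMIs of mature DCs in the long cohort (95% interval 6.86 to 19.6), and 9.36-fold from 5 UMIs in the short (4.004 to 28.9). In the T, NK and pDC gates together Cfb had 2, 1 and 0 UMIs.

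The receptor genes were high in the myeloid gate and near 0 in the other gates. C3ar1 ranged from 90.3 to 278 CPM over the myeloid arms with a median of 149, and did not exceed 9.47 CPM in T cells, 6.63 in pDCs or 16.7 in mature DCs. C5ar1 ranged from 87.1 to 205 CPM with a median of 147, and did not exceed 4.73 CPM in T cells or 7.41 in mature DCs. NK cells held no UMI of either receptor, which put the myeloid level at least 20.03-fold higher for C3ar1 in the long cohort and 23.7-fold in the short, and at least 15.7-fold and 23.01-fold higher for C5ar1. C5ar1 had no UMI in pDCs.

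**Figure D1:**
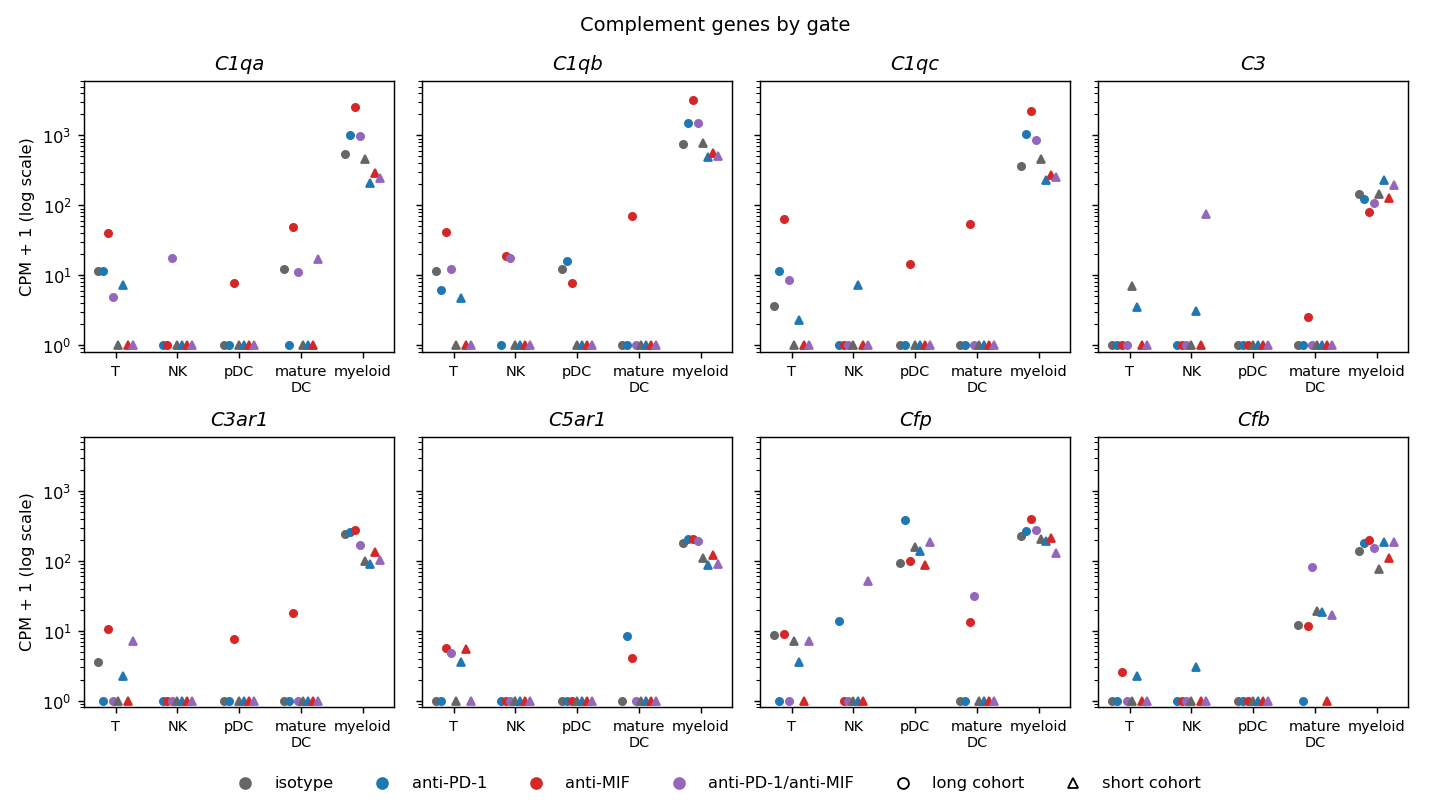
Levels of the 8 complement genes in 5 gates, as CPM + 1 on a log axis, with 1 point for each arm of each cohort with at least 5 cells. The myeloid points stand above those of the other gates, except that Cfp points of the pDC gate reach 379 CPM and lie among the myeloid points, and 1 Cfb point of the mature DC gate reaches 81.1 CPM.

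All 8 genes were lower than in the myeloid gate in each of the 4 other gates by edgeR's quasi-likelihood test on 38 sums of arm and gate with Benjamini-Hochberg adjustment. Among all 3976 genes tested, 34.3% were lower in T cells, 30.9% in NK cells, 29.3% in pDCs and 36.5% in mature DCs. All 8 genes passed the filter on low counts, which their myeloid level alone could satisfy, so the counts add nothing to the levels above. Many sums outside the myeloid gate held no UMI of a member, where a fitted fold depends on the count added to zeros, so no median over the members is given. The smallest differences were those of Cfb in mature DCs, with log2 fold change −3.21 (SE 0.30, adjusted p = 2.49e-11), and of Cfp in pDCs, with −0.75 (SE 0.28, adjusted p = 0.0249). The call for Cfp was lost with DESeq2 (log2 fold change −0.70, adjusted p = 0.219), at a stricter hashtag quantile (−0.14, adjusted p = 0.726) and in the short cohort alone (−0.34, adjusted p = 0.442). It was also lost without the long anti-MIF arm (−0.42, adjusted p = 0.240), the long isotype arm (−0.62, adjusted p = 0.0886) or the short anti-MIF arm (−0.69, adjusted p = 0.0571).

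Within the myeloid gate, the genes split by Trem2 and Ly6c2. Trem2 marks lipid-handling macrophages and Ly6c2 inflammatory monocytes, and neither belongs to the complement set. Cells with Trem2 and without Ly6c2 numbered 296, with a median of 10736 UMIs, and cells with Ly6c2 and without Trem2 numbered 1283, with a median of 7000. A further 583 cells held both genes and 349 neither, and were left out of this split. Summed C1q reached 6504 CPM in cells with both (long anti-MIF) and 7089 CPM in those with neither (10 cells, long anti–PD-1). C1q, the receptors and Cfp were higher in Trem2 cells, and C3 and Cfb were higher in Ly6c2 cells. C1qa ranged from 320 to 5032 CPM with a median of 1673 over 7 arms in Trem2 cells, and from 25.0 to 574 CPM with a median of 129 over 8 arms in Ly6c2 cells. C1qb ranged from 750.2 to 6331 CPM with a median of 2591 in Trem2 cells, and from 114 to 920.4 CPM with a median of 337 in Ly6c2 cells. C1qc ranged from 344 to 4753 CPM with a median of 1622 in Trem2 cells, and from 61.1 to 460 CPM with a median of 151 in Ly6c2 cells. The ranges of the 2 cell groups overlapped, but each chain was higher in Trem2 cells in 7 of the 7 arms that held both. Summed C1q was 2.04 to 48.8 times higher in Trem2 cells, with a median ratio of 10.99.

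C3 ran the other way. It was 46.4, 30.5 and 25.6 CPM in Trem2 cells of the long anti–PD-1, anti-MIF and combination arms, and 60.1, 92.0, 22.6 and 123 CPM in the 4 short arms from isotype to anti–PD-1/anti-MIF. In Ly6c2 cells it was 141, 139, 145 and 190.4 CPM in the 4 long arms and 201, 243, 165 and 197 CPM in the 4 short arms. Every Ly6c2 value lay above every Trem2 value. Cfb ranged from 24.6 to 150.0 CPM with a median of 69.5 in Trem2 cells and from 62.5 to 234 CPM with a median of 179.7 in Ly6c2 cells, and was higher in Ly6c2 cells in all but 1 of 7 arms. Cfp was higher in Trem2 cells in 7 of 7 arms, with medians of 316 and 189.9 CPM. C3ar1 had medians of 218 and 128 CPM and C5ar1 of 168 and 113 CPM, and each was higher in Trem2 cells in 6 of 7 arms.

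**Figure D2:**
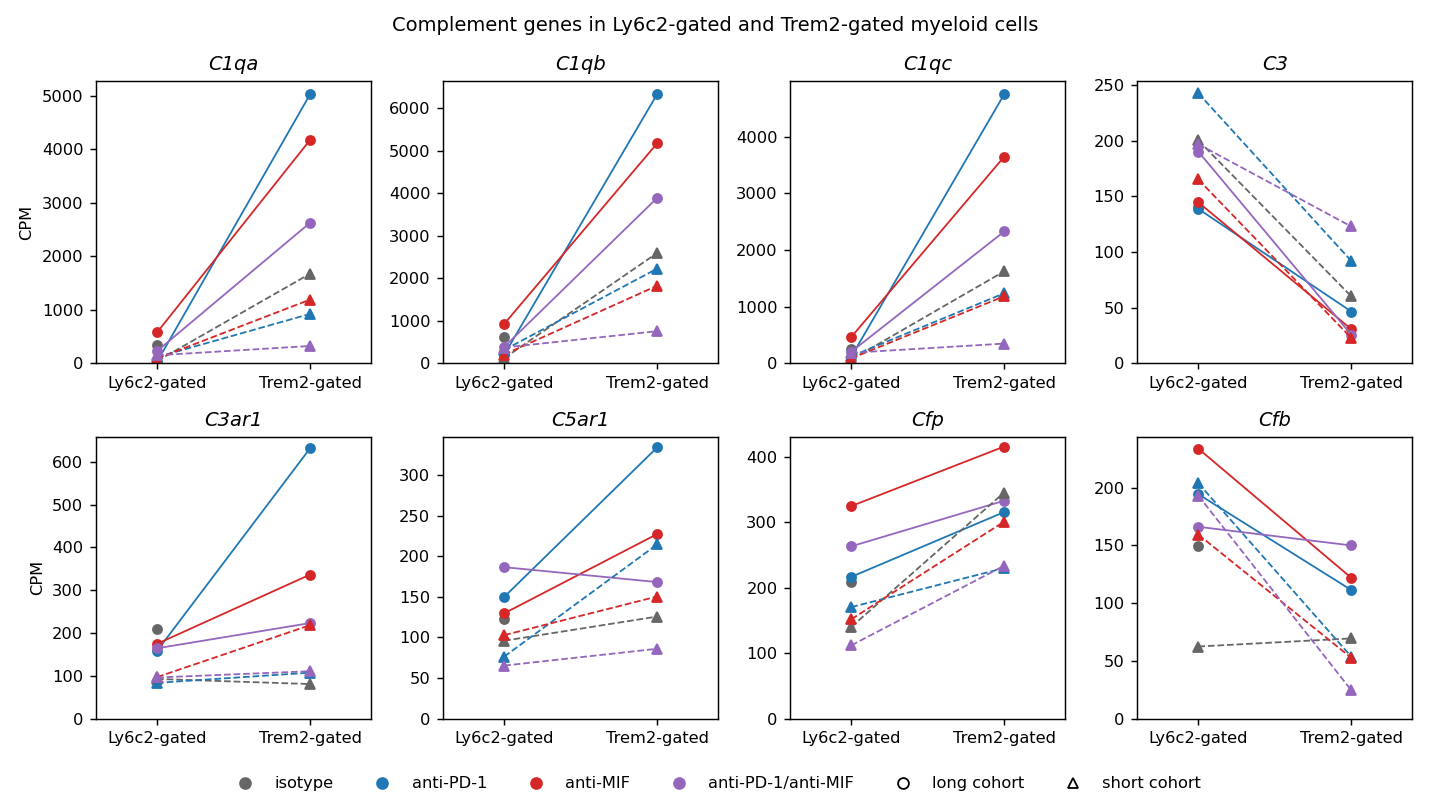
Levels of the 8 complement genes in myeloid gate cells with Trem2 and not Ly6c2 and with Ly6c2 and not Trem2, in CPM on a log axis, with 1 point for each arm. The C1q chains are higher with Trem2 (C1qa median 1673 against 129 CPM) and C3 is higher with Ly6c2 (median 178 against 46.4 CPM), where the points do not overlap.

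By edgeR with the arm as a block, 6 of the 8 genes were higher in Trem2 cells, where 11.8% of 5587 genes were, and 2 were lower, where 13.5% were. The log2 fold change was 3.82 (SE 0.48, adjusted p = 4.88e-05) for C1qa, 3.28 (SE 0.34, adjusted p = 1.15e-05) for C1qb and 3.64 (SE 0.36, adjusted p = 7.55e-06) for C1qc. C3 had −1.84 (SE 0.22, adjusted p = 3.04e-05) and Cfb −0.80 (SE 0.24, adjusted p = 0.0218). The receptors and properdin differed less, with 0.81 (SE 0.21, adjusted p = 0.0109) for C3ar1, 0.73 (SE 0.18, adjusted p = 0.00833) for C5ar1 and 0.76 (SE 0.15, adjusted p = 0.0018) for Cfp. In each cohort alone, the C1q chains and C3 were called again, Cfb lost its call in both, and the receptors and Cfp did not all keep theirs. Trem2 cells also held more UMIs each, and the part of depth in these differences was not tested.

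From cell to cell, the 3 C1q chains went together, and the correlations of the other genes lay much closer to 0. Myeloid gate cells were thinned to 2000 UMIs, which left 671 cells in the long and 1711 in the short cohort. The Pearson correlation of log-normalized levels, averaged over the 4 arms, was 0.91 for C1qa with C1qb, 0.91 for C1qa with C1qc and 0.92 for C1qb with C1qc in the long cohort, against 0.80, 0.83 and 0.84 in the short. These are descriptions over cells of 1 library, with equal depth per cell. Correlations of C3 with the chains ran from −0.19 to −0.17 in the long and from −0.09 to −0.07 in the short cohort. Those of C3ar1 with the chains ran from 0.19 to 0.21 and from 0.09 to 0.13, and those of Cfb from 0.03 to 0.04 and from 0.09 to 0.13. Values this close to 0 in sparse counts are read neither as relations nor as their absence. The chains did not keep one proportion. Of the C1q UMIs of the myeloid gate, C1qb made up 41.3% in the long and 49.5% in the short cohort, C1qa 31.4% and 24.9%, and C1qc 27.3% and 25.6%. The C1qb share ran from 40.7% to 45.5% over the 4 long arms and from 46.4% to 52.9% over the 4 short arms, without overlap.

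**Figure D3:**
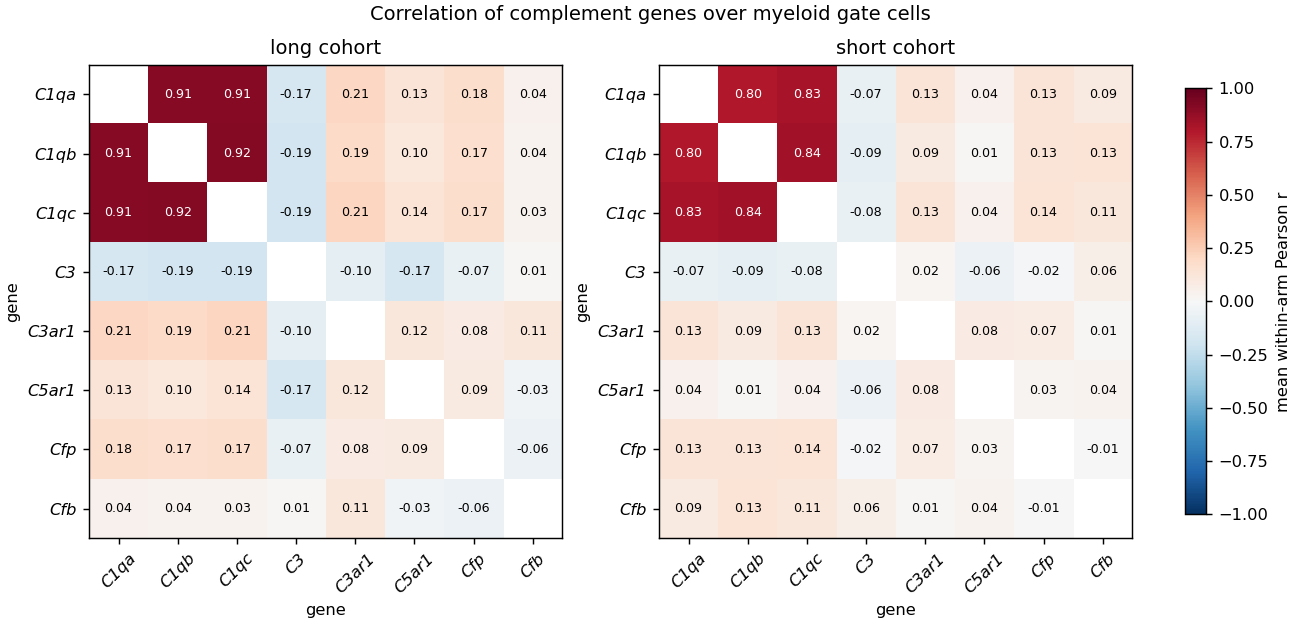
Pearson correlation of each pair of complement genes over myeloid gate cells thinned to 2000 UMIs, averaged over the 4 arms of each cohort, with color from −1 to 1. The 3 C1q chains form a block of 0.91 to 0.92 in the long and 0.80 to 0.84 in the short cohort, and all other pairs lie between −0.19 and 0.21.

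The genes outside the set most like C1q over myeloid gate cells were ranked by correlation. Among 2549 genes with at least 50 CPM, Cd72, a C-type lectin receptor, had the highest mean within-arm correlation with summed C1q (0.59), followed by Cxcl16, a chemokine (0.55). H2-Eb1 (0.49), H2-Aa (0.46) and H2-Ab1 (0.46), which encode MHC class II chains, and Cd74, their invariant chain (0.43), were among the first 10, with Ptms (0.44), Ly6a (0.42), Aif1 (0.42) and the lipid carrier Apoe (0.42). Plac8, a gene of monocytes, had the lowest correlation (−0.57). Trem2 had rank 15 (0.37) and C3 rank 2366 (−0.18). Over the 38 sums of arm and gate, which mainly separate myeloid from other cells, the genes most like summed C1q were C3ar1 (0.96), the chemokine Ccl12 (0.96), Trem2 (0.96), Sirpb1a (0.95) and Adgre1 (0.95), which encodes the macrophage marker F4/80.

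Myeloid gate cells with at least 3 C1q UMIs among 2000 were called C1q-positive. Cfp was higher in C1q-positive than in C1q-negative cells in 8 of 8 arms, C3ar1 in 7, Cfb in 6 and C5ar1 in 5, while C3 was lower in 7 of 8. In the long anti-MIF arm, with 233 positive and 179 negative cells, C3 was 0.386 UMIs per 10000 in positive and 1.45 in negative cells. In the short isotype arm, with 85 and 339 cells, it was 0.471 and 1.96. The exception was the short anti-MIF arm, with 1.55 in 42 positive and 1.25 in 259 negative cells.

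Between the cohorts, C1q and both receptor genes were higher in the long cohort, and C3, Cfp and Cfb did not pass the test. C1qa was 540.5 CPM in the isotype, 1026 in the anti–PD-1, 2546 in the anti-MIF and 986 in the anti–PD-1/anti-MIF arm of the long cohort, and 457, 206, 284 and 246 CPM in the short cohort. C1qb was 755, 1483, 3263 and 1511 CPM in the long cohort against 789, 490.4, 553 and 511 CPM in the short. C1qc was 363, 1038, 2207 and 856 CPM in the long cohort against 456, 231, 273 and 256 CPM in the short. The anti-MIF arm was the highest of the long cohort for each chain and the isotype arm the highest of the short cohort. The cohorts did not overlap for C1qa, but the long isotype arm lay below the short isotype arm for C1qb and C1qc. C3ar1 was 244, 259, 278 and 166 CPM in the long cohort against 99.6, 90.3, 132 and 103 CPM in the short. C5ar1 was 176, 205, 203 and 193 CPM in the long cohort against 109, 87.1, 118 and 90.3 CPM in the short. Every long arm lay above every short arm for both receptors. Cfp was 228, 269.9, 392 and 276 CPM in the long cohort against 207, 194, 208 and 128 CPM in the short, also without overlap. C3 was 143, 121, 78.2 and 106 CPM in the long cohort against 146, 230, 125 and 196 CPM in the short, lower in the long cohort in each of the 4 matched arms. Cfb was 139.7, 178, 196 and 152 CPM in the long cohort against 76.4, 187, 108 and 186 CPM in the short, with overlap.

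**Figure D4:**
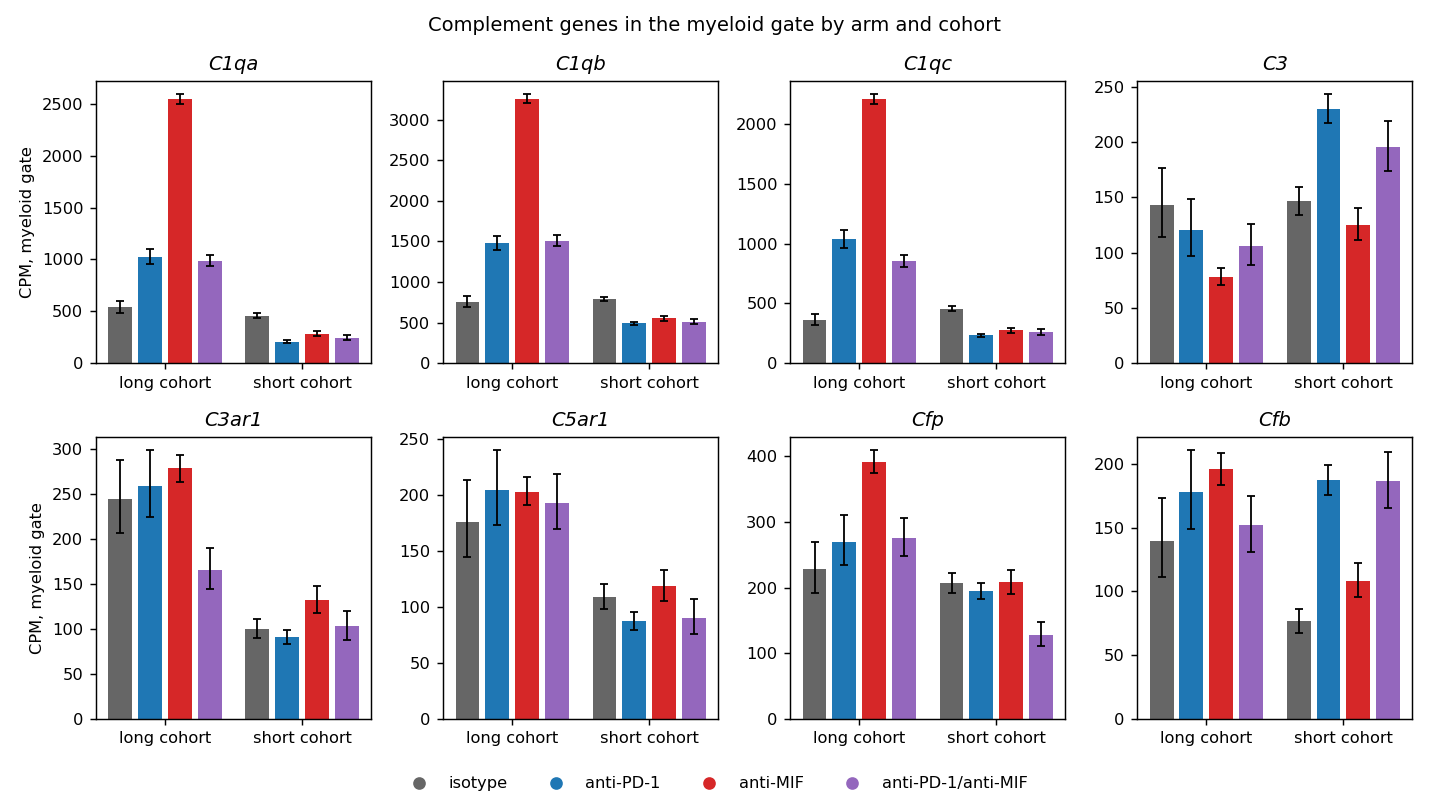
Levels of the 8 complement genes in the myeloid gate of each arm, in CPM on a linear axis from 0, with exact 95% Poisson intervals that cover counting error only. C1qa reaches 2546 CPM in the anti-MIF arm of the long cohort and 457 CPM at most in the short cohort, and C3 reaches 230 CPM in the anti–PD-1 arm of the short cohort.

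The model for the myeloid gate used the 8 arms with cohort, anti-MIF and anti–PD-1 as terms, so the spread comes from arms of different treatment. By edgeR, 5 of the 8 genes were higher in the long cohort, where 1.64% of 9357 genes were, and none was lower, where 1.97% were. The log2 fold change was 2.04 (SE 0.37, adjusted p = 0.0292) for C1qa, 1.51 (SE 0.34, adjusted p = 0.0439) for C1qb and 1.83 (SE 0.43, adjusted p = 0.0487) for C1qc. It was 1.16 (SE 0.16, adjusted p = 0.0158) for C3ar1 and 0.96 (SE 0.14, adjusted p = 0.0187) for C5ar1. Cfp (0.67, adjusted p = 0.0748), C3 (−0.62, adjusted p = 0.0646) and Cfb (0.35, adjusted p = 0.347) did not pass. With DESeq2 and without the filter on low counts, 6 members were called higher, Cfp among them (adjusted p = 0.0354 and 0.0145). Of all genes with an adjusted p, 217 of 6273 and 363 of 17859 were higher in these fits. C3 was called lower (adjusted p = 0.0251 and 0.00491), where 301 of 6273 and 648 of 17859 genes were. With a Lyz2 limit of 5, C3 was called lower as well (adjusted p = 0.0400), where 322 of 9577 genes were. Members called higher fell to 2 with a Lyz2 limit of 20, where 87 of 8985 genes were. At the stricter hashtag quantile they fell to 4, where 153 of 9387 genes were. In the first fit, the members' median was 1.06 and that of all genes 0.03. The number of members called higher fell to 0 without the long anti–PD-1, the short anti–PD-1, the short anti-MIF or the short anti–PD-1/anti-MIF arm and to 2 without the long anti-MIF arm, with the direction of all 5 unchanged. The summed levels of the neutrophil and mature DC lists moved between arms of the myeloid gate. The 5 neutrophil markers, S100a8 the most abundant, summed to 637, 898, 283 and 8059 CPM in the long cohort against 619, 139, 1329 and 102 CPM in the short. The 7 mature DC markers summed to 273, 477, 295 and 80.8 CPM in the long cohort against 70.9, 271, 247 and 409 CPM in the short. Nearly all of this sum was Ccl5 (mean 255 of 265 CPM), which was also high in the T and NK gates, so the sum does not measure mature DCs alone. The part of both lists in these differences was not tested, and 3 members were called without the long anti–PD-1/anti-MIF arm, which held the most neutrophil markers. Median UMIs per myeloid gate cell were 10479 in the long and 6711 in the short cohort, and the part of depth was not tested.

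For the treatments, no member passed the test. By edgeR, 0 of 9357 genes (0%) were called for anti-MIF, with 521 at an unadjusted p under 0.05 and 1 gene called by DESeq2, which was not a member. C3 was the only member under that unadjusted limit. It was lower with anti-MIF than in the matched arm in each of the 4 pairs, with log2 fold change −0.43 (SE 0.17, adjusted p = 0.858). The log2 fold change with anti-MIF was 0.31 (SE 0.36) for C1qa, 0.31 (SE 0.33) for C1qb and 0.25 (SE 0.42) for C1qc, with adjusted p from 0.917 to 0.948. For anti–PD-1, 0 genes (0%) were called as well, with 388 at an unadjusted p under 0.05 and 0 by DESeq2. C3 and Cfb were the members under that limit. C3 had log2 fold change 0.43 (SE 0.17) and Cfb 0.55 (SE 0.22), each with adjusted p = 0.9991. Cfb was 187 and 186 CPM in the short arms with anti–PD-1 and 76.4 and 108 CPM in those without it, while its long arms overlapped. The sum of the mature DC list given above, nearly all of it Ccl5, was also lowest in the short isotype arm, and its part in Cfb was not tested.

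The difference of C1q between the anti-MIF and isotype arms had opposite signs in the cohorts. In the long cohort C1qa, C1qb and C1qc all lay above isotype with anti-MIF, and in the short cohort all lay below. Between anti–PD-1/anti-MIF and anti–PD-1, C1qa and C1qc were lower and C1qb higher with the combination in the long cohort, and all were higher in the short cohort. The term for this difference had log2 values of 1.27 (SE 0.62) for C1qa, 1.27 (SE 0.53) for C1qb and 1.36 (SE 0.75) for C1qc, with adjusted p of 0.593, 0.537 and 0.619. No gene (0%) was called for it by edgeR, 828 had an unadjusted p under 0.05, and DESeq2 called 25 genes, none of them a member. Without the filter on low counts, 205 of 17859 genes were called, the 3 chains among them.

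Per cell, the arms of the long cohort differed widely in the share of cells that held C1q. The share of C1q-positive cells was 14.7% (95% interval 7.28% to 25.4%) in the isotype, 22.5% (13.9% to 33.2%) in the anti–PD-1, 56.6% (51.6% to 61.4%) in the anti-MIF and 34.2% (25.5% to 43.8%) in the anti–PD-1/anti-MIF arm of the long cohort. In the short cohort it was 20.0% (16.3% to 24.2%), 14.7% (12.3% to 17.5%), 13.95% (10.2% to 18.4%) and 13.4% (9.26% to 18.4%). In T gate cells, which should lack C1q, the share at the same depth was 0.837% for the long cohort, and the short cohort had 0 of 262 cells, which allows a share of up to 1.398%. Before thinning, the median was 7293 UMIs in myeloid and 4426 in T gate cells, and the unthinned myeloid shares were 16.9%, 27.6%, 59.3% and 41.2% in the long cohort against 24.4%, 17.7%, 20.0% and 15.1% in the short cohort. Positive cells held on average 28.4, 27.8, 24.5 and 18.9 C1q UMIs per 2000 in the long cohort against 13.8, 10.0, 12.8 and 12.0 in the short. The long anti-MIF arm had the largest share but not the highest level per positive cell, and every long arm lay above every short arm in that level. The share with anti-MIF minus that of the matched arm was 41.8 and 11.7 points in the long and −6.09 and −1.36 points in the short cohort. The mean over the 4 pairs was 11.5 points (SD 21.6), with p = 0.50 by exact permutation of the signs of the differences (two-sided), where 4 pairs allow no p smaller than 1 in 8. Without the long anti-MIF arm or its isotype match the mean was 1.43 points. Between 0 and 35 cells per arm lay next to the limit of 3 UMIs. The share of Trem2 cells in the myeloid gate was 4.23%, 11.5%, 36.0% and 20.2% in the long cohort against 13.5%, 2.05%, 4.31% and 5.71% in the short cohort, highest in the same arms as C1q.

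**Figure D5:**
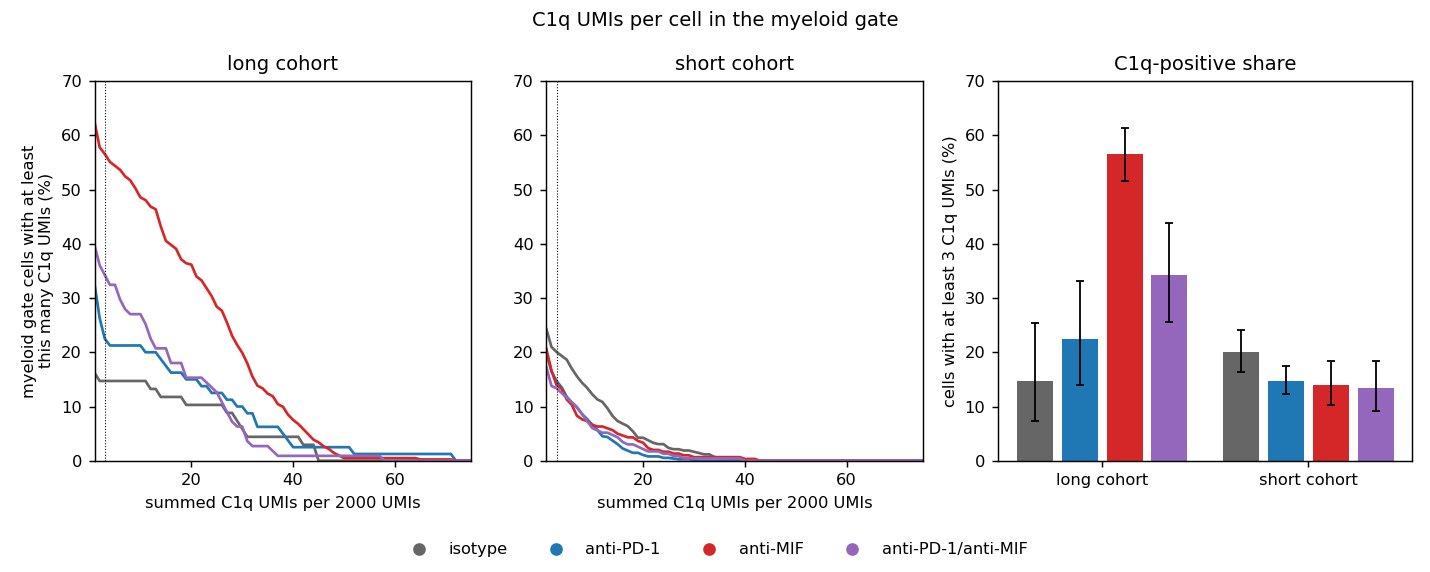
Left and middle, the percent of myeloid gate cells in each arm with at least a given number of summed C1q UMIs among 2000, by cohort, with a dotted line at 3 UMIs. Right, the percent at or above 3 UMIs with exact 95% binomial intervals, 56.6% in the long anti-MIF arm and 13.4% to 20.0% over the short arms.

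Of 48 other complement genes, most were scarce. No UMI of 15 of them was found in the 5 gates, factor D (Cfd), C6 and C7 among them, and 9 had a mean of at least 50 CPM in at least 1 gate. The genes that act next to C1q in the classical pathway had few UMIs in the 5 gates, 71 for C1ra, 2 for C1s1, 39 for C2 and 124 for C4b. Itgam and Itgb2, which encode complement receptor 3, had means of 484 CPM (SD 56.4) and 399 CPM (SD 46.9) in the myeloid gate. Lair1, an inhibitory receptor that binds C1q, was 697 CPM (SD 105) in pDCs over 7 arms and 200.3 CPM (SD 61.4) in the myeloid gate over 8. Lrp1, an uptake receptor, was 306 CPM and Cd93 58.5 CPM in the myeloid gate. Itgax, Calr, C1qbp and Cr1l were the others at 50 CPM. Of the 8 listed genes tested between gates, T cells had 1 higher (Cr1l) and 6 lower, NK cells 2 higher (Cr1l and C1qbp) and 5 lower, pDCs 2 higher (Cr1l and Lair1) and 3 lower, and mature DCs 0 higher and 6 lower. Of all genes tested, 34.8% were higher in T cells, 26.1% in NK cells, 22.6% in pDCs and 27.5% in mature DCs, beside the shares lower given above. Of 10 tested in the myeloid subgroups, 3 were higher in Trem2 cells (C1qbp, Calr and Lair1) and none was lower, where 11.8% and 13.5% of all genes were. None of 14 tested passed for anti-MIF, anti–PD-1 or the cohort.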

How the data were processed

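The authors aligned 5′ single-cell libraries to mm10 with Cell Ranger 7.1.0 and deposited unnormalized counts of UMIs on each gene or hashtag. Barcodes were assigned to arms with HTODemux (Seurat 5.3.0, quantile 0.99), and hashtag doublets and negatives were removed. Doublets within an arm were not, and free RNA was not subtracted. Cells with 200 to 5000 genes and at most 5% mitochondrial UMIs were kept. A 5th hashtag was left out of the tests. A cell in the gates had at least 1 UMI of each gating gene, T, NK and pDC cells had under 10 Lyz2 UMIs per 10000, and 27 cells in several gates were left out. UMIs were summed per arm and gate, with at least 5 cells, and tested with edgeR 4.0.16 (quasi-likelihood, filterByExpr, TMM, Benjamini-Hochberg at 0.05), with the arm as a block between gates. DESeq2 1.42.0 was an alternative, as were other Lyz2 limits, quantiles and filters and leaving out each arm. Both were tested on simulated data. Intervals are exact, Poisson for CPM, conditional binomial for ratios and Clopper-Pearson for shares. CPM of UMIs is not scaled by length, so levels were not compared between genes. Gene positions are from GENCODE vM21 and promoters from RefSeq.

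All 8 members were named. Other genes were named by rule, as listed complement genes with at least 50 CPM in a gate, the 10 most correlated with summed C1q over myeloid cells and the 5 most correlated over sums on log2(CPM + 10). Members and lists were chosen with earlier results of these data known.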

Additional observations from a re-analysis of the deposited data

Results flagged for a closer look

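The share of C1q-positive cells differed between anti-MIF and its matched arm in opposite directions in the cohorts. It was higher by 41.8 points (against isotype) and 11.7 points (combination against anti–PD-1) in the long cohort, and differed by −6.09 and −1.36 points in the short cohort. The difference between the cohorts was not tested for the share.

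A 5th hashtag, whose name joins anti-PD1, MIF and DDT, is in the files without a treatment in the labels, and its cells entered none of the tests. Its levels are set beside the isotype arms as values only. Its myeloid gate held C3 at 203.1 CPM in the long and 202.6 CPM in the short cohort, above 143 and 146 CPM in the isotype arms. It held Cfb at 300.7 CPM in the long and 132 CPM in the short cohort, above 139.7 and 76.4 CPM in the isotype arms, with 95% Poisson intervals that did not overlap. Across the arms with a labelled treatment, C3 reached 143 CPM in the long and 230 CPM in the short cohort. Cfb reached 196 and 187 CPM there, and the short anti–PD-1 arm lay above this hashtag for both genes.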

How the results depend on the processing

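The fits gave 72 results of a member in a comparison. Over their 1200 values under the alternatives, 1101 kept their direction and their side of the threshold, 46 lost a call, 10 gained one and 43 changed sign, and no value that changed sign was called. Members called between Trem2 and Ly6c2 cells fell from 8 to 5 in the long cohort alone and to 5 in the short cohort alone. Members higher in the long cohort fell from 5 to 2 with a Lyz2 limit of 20, and members called in either direction ran from 0 to 7 when 1 arm was left out. Without the filter on low counts, 3 members were called for the difference of anti-MIF between cohorts, among 205 of 17859 genes.

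Signs changed only where the fitted difference was not called. For anti-MIF, C3ar1 was 0.043 with a Lyz2 limit of 5 and 0.16 with 20, C5ar1 was −0.073 at the stricter hashtag quantile, and Cfp was −0.012 with DESeq2, −0.065 with a Lyz2 limit of 20 and −0.0036 with 2 UMIs of the gating genes (log2). For the difference of anti-MIF between cohorts, C3ar1 was 0.093 with a Lyz2 limit of 20, C5ar1 0.058 without the filter, 0.058 and 0.15 with a Lyz2 limit of 5 and 20 and 0.13 at the stricter quantile, and Cfb −0.038 with 2 UMIs. With 1 arm left out, the anti-MIF values ran from −0.11 to 0.71 for C1qa, −0.092 to 0.63 for C1qb, −0.22 to 0.71 for C1qc, −0.11 to 0.13 for C3ar1, −0.069 to 0.11 for C5ar1, −0.23 to 0.20 for Cfp and −0.048 to 0.35 for Cfb. The anti–PD-1 values ran from −0.69 to 0.10 for C1qb and −0.84 to 0.14 for C1qc, and those of the difference between cohorts from −0.66 to 0.21 for C3, −0.18 to 0.25 for C5ar1 and −0.59 to 0.54 for Cfb. The causes were not tested. No paired analysis was possible by replicate number, because each label's replicate number names a whole library, not an arm, so the matched arms were paired by treatment within a cohort and the blocks between gates were arms. Each arm is 1 sample, so p-values measure the spread between arms of different treatment. Small gates limit the depth, with 92 cells and 637947 UMIs in the pDC gate.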

Other observations

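In the same cells under the hashtag without a labelled treatment, C1qa was 452 CPM in the long and 179 CPM in the short cohort, against 540.5 and 457 CPM in the isotype arms. C1qb was 865 and 346 CPM, against 755 and 789 CPM, and C1qc was 442 and 177 CPM, against 363 and 456 CPM, both with overlapping 95% Poisson intervals in the long cohort. C3ar1 was 183 and 83.8 CPM, against 244 and 99.6 CPM. Cells with Trem2 and without Ly6c2 were 1.49% and 4.08% of its myeloid gate.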
